A study of Rattus norvegicus with 6 samples.

Results

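The epithelial cells that line Bowman's capsule were followed through 10 genes in isolated rat glomeruli: CLDN1, PAX2, PAX8, KRT7, KRT8, KRT18, KRT19, CD44, SCIN and CDH6. The genes were chosen as markers of parietal epithelium, and every Ensembl rat ID that carries one of these human symbols in the authors' deposited comparison tables was kept. Each symbol paired with 1 ID, so there were 10 genes of the 26319 in the count table, and all 10 were among the 13426 genes tested. No member was at 0 in any library.

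Glomeruli came from Sprague Dawley rats in 3 groups of 2 libraries: wild type given vehicle (WT), rats with an AT1R transgene (AT1R Tg; AT1R is the angiotensin II type 1 receptor) given vehicle, and AT1R Tg rats given AC1903, an inhibitor of the calcium-permeable channel TRPC5. The study asked whether the inhibitor alters glomerular disease in the transgenic rats, in what the submitters call the advanced cohort. The WT rats were 20.4 (replicate 1) and 21.9 weeks of age (replicate 2), the AT1R Tg vehicle rats 20.4 and 17.4 weeks, and the AC1903-treated rats 23.0 and 20.4 weeks. The labels name neither the promoter that drives the transgene nor the dose of AC1903. The ages differ within each group, so its libraries came from different rats, but 2 per group is few.

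Parietal epithelial cells are flat cells held together by claudin-1 junctions that form the outer wall of the urinary space around the capillary tuft. They keep PAX2 and PAX8, transcription factors of the developing nephron that mature podocytes have switched off, and carry simple-epithelium keratins. When they are activated in glomerular scarring or crescents they take on the hyaluronan receptor CD44 and migrate onto the tuft. None of the 10 genes belongs to these cells alone. For example, PAX8, CDH6 and the keratins are also made in tubules, the keratins in the urothelium of the renal pelvis as well, and CD44 in leukocytes. In these bulk libraries fewer cells of a type and less RNA per cell cannot be told apart.

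Library totals ran from 12325515 to 14230770 expected counts in the transgenic groups and were 25045081 and 36026772 in WT, so depth differed with genotype. The podocyte markers NPHS1 (nephrin) and WT1 were at or above 1270.65 and 135.115 CPM (counts per 1000000 counts of the library, after TMM scaling) in every library, as glomerular tissue should give. AT1R Tg vehicle replicate 2 stood apart in its tubule markers, with 3.55 times the WT mean in the summed proximal tubule list. Its summed podocyte list was the lowest, at 0.638 times the WT mean, but AT1R Tg AC1903 replicate 1 was also low, at 0.721 times. WT replicate 2 stood apart in urothelial genes, described with the keratins below. Levels below are CPM, changes are edgeR log2 changes with their SE, and adjusted p-values come from edgeR's quasi-likelihood test over all 13426 genes. With 2 libraries against 2, no two-sided permutation test can give a p below 0.3333.

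The 10 genes did not move as one. CLDN1, CDH6, PAX2, PAX8 and KRT8 each had their lowest mean in WT, their highest in AT1R Tg vehicle and a mean between those in AT1R Tg AC1903. KRT18 and KRT19 had the reverse order, with AT1R Tg vehicle lowest. KRT7 was highest in WT and about equal in both transgenic groups, SCIN was highest in WT and lowest with AC1903, and CD44 was highest with AC1903. No member passed an adjusted p of 0.05 in edgeR in any of the 3 comparisons, so these orders are of means and not of called changes. KRT8 and PAX8, vehicle against WT, were the calls made by DESeq2 and by the authors' deposited table.

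**Figure D1:**
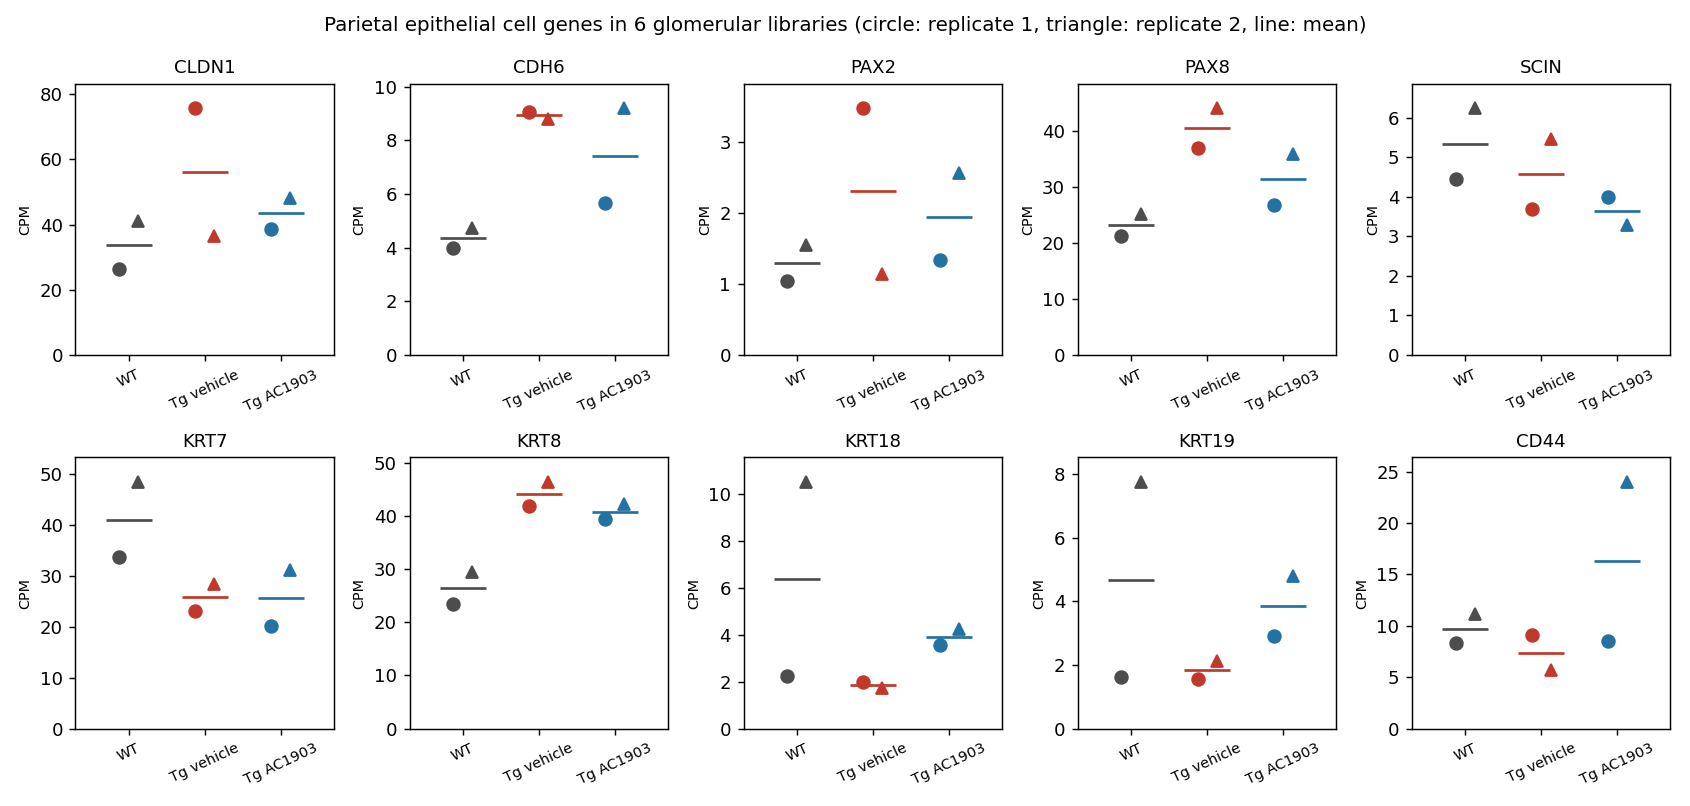
CPM (vertical axis, from 0, a separate scale for each gene) of the 10 genes in WT, AT1R Tg vehicle and AT1R Tg AC1903; circles are replicate 1, triangles replicate 2 and lines group means. KRT8 and PAX8 are higher in both AT1R Tg vehicle libraries than in both WT libraries, while the WT means of KRT18 and KRT19 rest on replicate 2.

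The lineage transcription factors come first. PAX8 (ENSRNOG00000026203) stood at 21.3 and 25.2 CPM in WT, 37.0 and 44.1 CPM in AT1R Tg vehicle, and 26.8 and 36.0 CPM in AT1R Tg AC1903. All 3 groups were separate for this gene, with WT below AC1903 and AC1903 below vehicle. The group means were 23.3 ± 2.75, 40.6 ± 5.02 and 31.4 ± 6.49 CPM (SD, n = 2). Vehicle against WT, the log2 change was 0.80 with SE 0.20 (adjusted p = 0.189 in edgeR, 0.0302 in DESeq2). In the authors' deposited table the same change was 0.83 with an adjusted p of 0.0264. AC1903 against vehicle it was -0.37 with SE 0.21 (adjusted p = 0.662), and AC1903 against WT 0.43 with SE 0.20 (adjusted p = 0.462). Leaving out 1 library at a time, the change of vehicle against WT ran from 0.67 to 0.93.

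PAX2 (ENSRNOG00000014253), the related factor, was scarce. WT gave 29 and 57 counts, vehicle-treated transgenic rats 49 and 14, and AC1903-treated ones 16 and 32. That is 1.04 and 1.55 CPM, 3.47 and 1.14 CPM, and 1.33 and 2.56 CPM. The groups overlapped throughout, and the vehicle libraries alone were 3.04-fold apart. The log2 change of vehicle against WT was 0.83 with SE 0.70 (adjusted p = 0.709), and it was -0.19 without AT1R Tg vehicle replicate 1. No difference in PAX2 was detectable beyond the spread between libraries. Counts of PAX2 per count of PAX8 were 0.0488 and 0.0613 in WT, 0.0937 and 0.0258 in vehicle and 0.0497 and 0.0711 with AC1903. The ratio differed most between the 2 vehicle libraries, where it rested on 49 and 14 counts of PAX2.

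Of the junction genes, CDH6 (ENSRNOG00000013535), the cadherin of the nephron's epithelial precursors, stood at 3.98 and 4.74 CPM in WT, 9.06 and 8.79 CPM in AT1R Tg vehicle and 5.66 and 9.19 CPM in AT1R Tg AC1903. Every transgenic library lay above both WT libraries, and the AC1903 libraries spanned the vehicle ones. Its mean was 2.05-fold higher in vehicle than in WT, at 8.92 ± 0.189 against 4.36 ± 0.538 CPM (SD, n = 2), a log2 change of 1.03 with SE 0.33 that did not pass (adjusted p = 0.239). DESeq2 gave an adjusted p of 0.115 and the authors' deposited table an adjusted p of 0.0829. For AC1903 against WT the log2 change was 0.77 with SE 0.33 (adjusted p = 0.447), and for AC1903 against vehicle -0.26 with SE 0.33 (adjusted p = 0.834).

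CLDN1 (ENSRNOG00000001926), the tight junction claudin of Bowman's capsule, stood at 26.4 and 41.1 CPM in WT, 75.7 and 36.4 CPM in AT1R Tg vehicle and 38.8 and 48.2 CPM in AT1R Tg AC1903. A single library, AT1R Tg vehicle replicate 1, held the high value, while the other vehicle library lay inside the WT range. The log2 change of vehicle against WT was 0.73 with SE 0.34 (adjusted p = 0.461), and it was 0.10 without that library. AC1903 against vehicle gave -0.37 with SE 0.34 (adjusted p = 0.768), which turned to 0.25 without the same library. AC1903 against WT gave 0.36 with SE 0.34 (adjusted p = 0.721).

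The 3 genes whose profile over the 6 libraries was most like that of CLDN1, among 9734 genes with a mean of at least 5 CPM, were SPP1, IGFBP2 and TIMP2. Likeness was the root mean square difference of log2 CPM, each gene centred on its own mean, and was 0.0894, 0.125 and 0.147 log2 units, where CLDN1 itself varied by 0.459 about its mean. SPP1 encodes osteopontin, a secreted ligand of CD44 and integrins. WT had 200 and 275 CPM of it, the vehicle libraries 503 and 261 CPM, and the AC1903 libraries 304 and 331 CPM, so the same vehicle library was high. For PAX8 the most alike were FHOD3, ASRGL1 and C4A, with differences of 0.0750, 0.0754 and 0.0766 against its own spread of 0.363. With 6 libraries such lists are a description only.

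SCIN (ENSRNOG00000004498), the actin-severing protein scinderin, stood at 4.45 and 6.23 CPM in WT, 3.68 and 5.45 CPM in AT1R Tg vehicle and 3.99 and 3.28 CPM in AT1R Tg AC1903. Vehicle overlapped both other groups, and AC1903 lay below WT. The log2 change of AC1903 against WT was -0.56 with SE 0.39 (adjusted p = 0.622), that of vehicle against WT -0.23 with SE 0.39 (adjusted p = 0.869), and that of AC1903 against vehicle -0.33 with SE 0.40 (adjusted p = 0.83). Counts ran from 41 to 230 per library.

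Keratin filaments are built from pairs of a type II and a type I chain, here KRT8 with KRT18 and KRT7 with KRT19. KRT8 and KRT18 had opposite signs in all 3 comparisons, but not all of these signs were clear. For AC1903 against vehicle KRT8 had no clear sign, at -0.11 with SE 0.18. Against WT the contrast rested largely on WT replicate 2. Without that library KRT18 gave 0.81 for AC1903 against WT, the sign of KRT8. For vehicle against WT KRT18 gave -0.27 without it and -1.78 with it. KRT7 and KRT19 were both negative against WT. For AC1903 against vehicle KRT19 was positive and KRT7 had no clear sign, at -0.0053 with SE 0.27. KRT8 (ENSRNOG00000009779) stood at 23.4 and 29.4 CPM in WT, 42.0 and 46.4 CPM in AT1R Tg vehicle and 39.4 and 42.2 CPM in AT1R Tg AC1903. Every transgenic library was above both WT libraries. Vehicle and AC1903 overlapped. The group means were 26.4 ± 4.25, 44.2 ± 3.13 and 40.8 ± 1.96 CPM (SD, n = 2). Vehicle against WT, the log2 change was 0.74 with SE 0.18 (adjusted p = 0.18 in edgeR, 0.0191 in DESeq2), and the authors' deposited table gave 0.77 with an adjusted p of 0.0165. AC1903 against WT, it was 0.63 with SE 0.18 (adjusted p = 0.34 in edgeR, 0.14 in DESeq2). AC1903 against vehicle, it was -0.11 with SE 0.18 (adjusted p = 0.875). Without 1 library at a time the change of vehicle against WT stayed between 0.58 and 0.91.

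KRT18 (ENSRNOG00000047393), the partner of KRT8, stood at 2.22 and 10.5 CPM in WT, 1.98 and 1.71 CPM in AT1R Tg vehicle and 3.58 and 4.24 CPM in AT1R Tg AC1903. WT replicate 2 was 4.72-fold above WT replicate 1, which lay close to the vehicle libraries, and the AC1903 libraries were between. The log2 change of vehicle against WT was -1.78 with SE 0.68 (adjusted p = 0.332; 0.15 in the authors' deposited table). It was -0.27 without WT replicate 2. AC1903 against vehicle, where no WT library enters the means, the change was 1.08 with SE 0.69 (adjusted p = 0.673), from 1.85 ± 0.192 to 3.91 ± 0.466 CPM (SD, n = 2). AC1903 against WT gave -0.71 with SE 0.64 (adjusted p = 0.711), and 0.81 without WT replicate 2.

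Counts of KRT18 per count of KRT8 were 0.0951 and 0.357 for WT, 0.0472 and 0.0368 for AT1R Tg vehicle, and 0.0907 and 0.100 for AC1903. The ratio was lower in both vehicle libraries than in any other, and the AC1903 libraries stood beside WT replicate 1. It rested on few counts of KRT18: 28 and 21 in vehicle, 43 and 53 with AC1903 and 62 in WT replicate 1. KRT8 and KRT18 neighbour each other on chromosome 7 in RefSeq's assembly GRCr8. Their promoters run from 250 bases before to 50 bases after the annotated start. They are printed because the neighbouring partner genes had opposite signs against WT in the fit of all 6 libraries. That of PAX8, the other gene called by DESeq2, is printed beside them. The sequences are RefSeq's, in GRCr8, written 5′ to 3′ on the gene's strand. The counts were made on Rnor_5.0 instead, and 8 of the 10 members had a promoter entry. Capitals mark TATAAA, the letters of a classical core promoter element, and GGGCGG, those of a GC box. Both strands were searched, so a match on the other strand is printed as its reverse complement, and overlapping matches were kept.
KRT8 (chr7:135010290-135010589, minus strand): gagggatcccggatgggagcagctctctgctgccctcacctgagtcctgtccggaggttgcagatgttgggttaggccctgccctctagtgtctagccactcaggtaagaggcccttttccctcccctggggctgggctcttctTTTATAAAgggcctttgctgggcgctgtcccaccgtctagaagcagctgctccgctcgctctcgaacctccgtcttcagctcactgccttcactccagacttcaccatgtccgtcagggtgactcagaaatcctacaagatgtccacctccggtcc
KRT18 (chr7:135035918-135036217, plus strand): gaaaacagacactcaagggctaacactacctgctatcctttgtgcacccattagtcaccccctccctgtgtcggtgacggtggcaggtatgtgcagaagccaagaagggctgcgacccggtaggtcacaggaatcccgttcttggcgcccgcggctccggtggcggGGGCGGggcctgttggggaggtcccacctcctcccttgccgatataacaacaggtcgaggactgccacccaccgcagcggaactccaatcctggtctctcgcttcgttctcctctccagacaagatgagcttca
PAX8 (chr3:27640582-27640881, minus strand): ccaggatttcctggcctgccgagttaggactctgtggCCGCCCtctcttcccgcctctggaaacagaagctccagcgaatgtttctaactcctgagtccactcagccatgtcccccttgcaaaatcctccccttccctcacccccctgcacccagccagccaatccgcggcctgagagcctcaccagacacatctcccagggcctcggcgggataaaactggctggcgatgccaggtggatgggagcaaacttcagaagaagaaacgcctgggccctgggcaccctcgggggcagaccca

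The KRT8 window held the TATA letters on both strands in overlapping matches, starting 106 and 104 bases before the annotated start, and no GC box. In this KRT8 entry the annotated start falls on an ATG, so these distances need not run from where transcription begins. KRT18 held a GC box 84 bases and PAX8 one 213 bases before the start, and neither window held a TATA match. These letters were present in 14.2% and a GC box in 33.1% of all 33469 rat promoter windows of this length. Among the 8 members with an entry, 1 held the TATA letters and 5 a GC box. A match describes letters only.

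KRT19 (ENSRNOG00000014233), a type I keratin, stood at 1.61 and 7.75 CPM in WT, 1.56 and 2.12 CPM in AT1R Tg vehicle and 2.91 and 4.80 CPM in AT1R Tg AC1903. As for KRT18, WT replicate 2 was the highest library, 4.80-fold above WT replicate 1. The log2 change of vehicle against WT was -1.36 with SE 0.71 (adjusted p = 0.521) and became 0.18 without WT replicate 2. AC1903 against vehicle gave 1.07 with SE 0.73 (adjusted p = 0.686), with both AC1903 libraries above both vehicle libraries. AC1903 against WT gave -0.29 with SE 0.68 (adjusted p = 0.898), and 1.25 without WT replicate 2. Counts of KRT19 ran from 22 to 286 per library.

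KRT7 (ENSRNOG00000008057), a type II keratin, stood at 33.6 and 48.3 CPM in WT, 23.1 and 28.4 CPM in AT1R Tg vehicle and 20.1 and 31.2 CPM in AT1R Tg AC1903. Both WT libraries were above every transgenic library. The log2 change was -0.67 with SE 0.26 for vehicle against WT (adjusted p = 0.346) and -0.68 with SE 0.26 for AC1903 against WT (adjusted p = 0.413). Without WT replicate 2 these were -0.39 and -0.39. AC1903 against vehicle, it was -0.0053 with SE 0.27 (adjusted p = 0.996).

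Uroplakins, the membrane proteins of urothelium, marked the same libraries as KRT18 and KRT19. This list was drawn up after the keratin values were seen, and 4 of its 5 genes (UPK1A, UPK1B, UPK2 and UPK3A) could be paired with an ID. Summed, they stood at 4.63 CPM in WT replicate 1 and 41.2 CPM in WT replicate 2, at 3.40 and 6.51 CPM in AT1R Tg vehicle, and at 12.8 and 13.4 CPM in AT1R Tg AC1903. For UPK2 alone WT had 1.22 and 13.2 CPM, the vehicle libraries 0.849 and 1.95 CPM, and the AC1903 libraries 3.08 and 1.52 CPM, and UPK3A was at 0 counts in AT1R Tg vehicle replicate 1. In the sum WT replicate 2 was highest, both AC1903 libraries were next and both vehicle libraries were low, with WT replicate 1 among the vehicle values. UPK2 did not follow that order, since vehicle replicate 2 was above AC1903 replicate 2. The part of urothelial RNA in the KRT7, KRT8, KRT18 and KRT19 values was not tested.

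**Figure D2:**
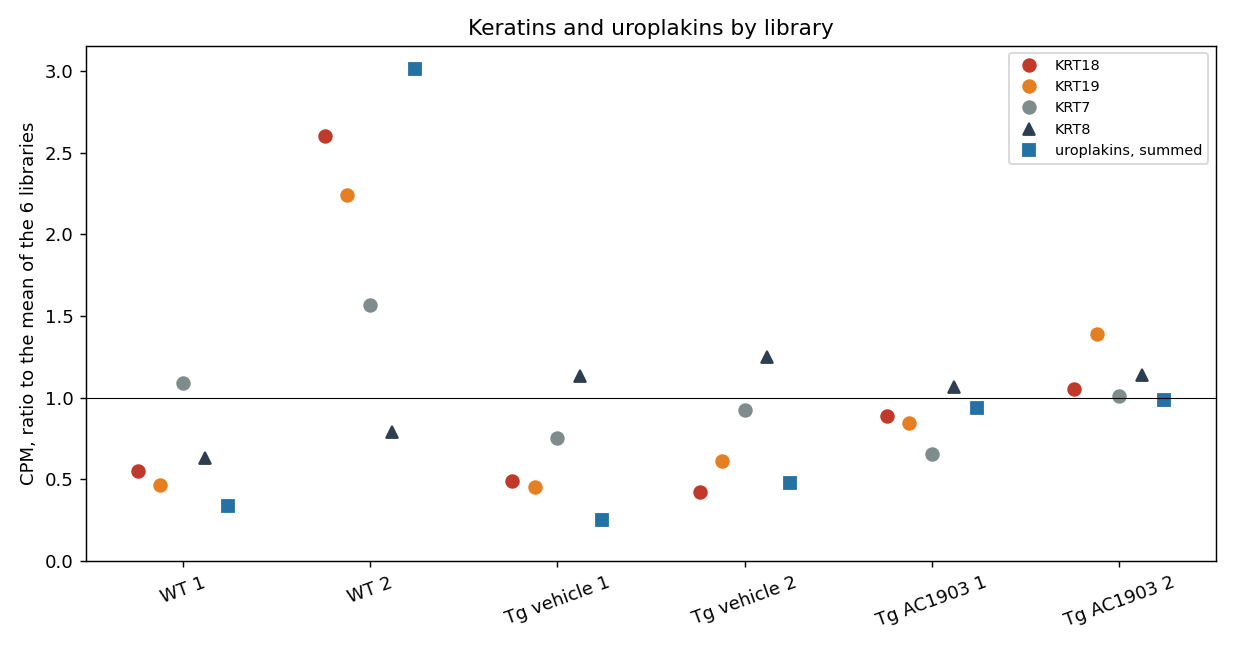
CPM of KRT18, KRT19, KRT7, KRT8 and the sum of 4 uroplakins, each as a ratio to its own mean over the 6 libraries (vertical axis, from 0), by library (horizontal axis). In WT replicate 2 the uroplakin sum is 3.01, KRT18 2.60, KRT19 2.24 and KRT7 1.57 times the mean, while KRT8 is 0.792 times its mean.

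CD44 (ENSRNOG00000006094), the hyaluronan receptor of activated parietal cells, stood at 8.33 and 11.1 CPM in WT, 9.06 and 5.70 CPM in AT1R Tg vehicle and 8.57 and 24.0 CPM in AT1R Tg AC1903. AT1R Tg AC1903 replicate 2 was alone in being high, 2.80-fold above its fellow, which lay within the range of the other 4 libraries. The log2 change of AC1903 against vehicle was 1.14 with SE 0.47 (adjusted p = 0.606; 0.612 in the authors' deposited table) and was 0.18 without AC1903 replicate 2. AC1903 against WT gave 0.74 with SE 0.45 (adjusted p = 0.57), and -0.19 without that library. Vehicle against WT gave -0.40 with SE 0.46 (adjusted p = 0.798).

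Leukocyte genes were high in the same library as CD44. The 13 leukocyte markers that could be paired, of 18 listed, summed to 113 and 170 CPM in WT, 86.5 and 120 CPM in AT1R Tg vehicle and 182 and 349 CPM in AT1R Tg AC1903, and 1 of the 13 was at 0 in AC1903 replicate 2. PTPRC (CD45, carried by all white blood cells) stood at 16.7 and 19.8 CPM, 12.7 and 14.2 CPM, and 33.9 and 56.9 CPM. Unlike CD44, PTPRC was high in both AC1903 libraries. The genes most like CD44 over the 6 libraries were LCP2, S100A4 and FCGR1B, with differences of 0.166, 0.222 and 0.250 log2 units against its own spread of 0.629. LCP2 is an adaptor of lymphocyte and platelet receptor signalling, and FCGR1B belongs to the Fc receptors for IgG. The part of leukocyte RNA in the CD44 values was not tested.

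**Figure D3:**
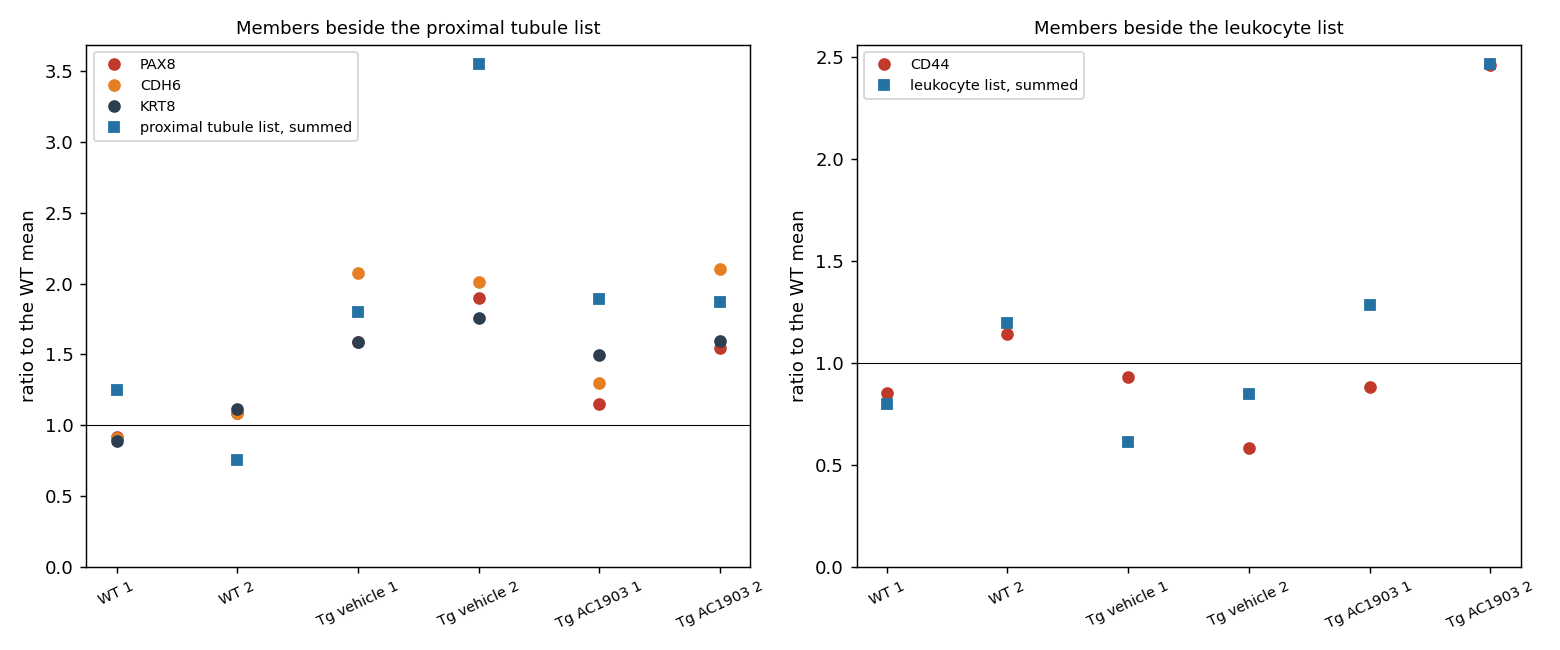
Level relative to the WT mean (vertical axis, from 0) by library (horizontal axis): on the left PAX8, CDH6 and KRT8 beside the summed proximal tubule list, on the right CD44 beside the summed leukocyte list. AT1R Tg vehicle replicate 2 has the highest proximal tubule sum, 3.55 times the WT mean, with PAX8 at 1.90 and KRT8 at 1.76 times. CDH6 is at 2.01 times there, 2.08 in vehicle replicate 1 and 2.11 in AC1903 replicate 2. AT1R Tg AC1903 replicate 2 has CD44 at 2.46 and the leukocyte sum at 2.47 times.

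Proximal tubule genes were also higher in the groups in which PAX8, KRT8 and CDH6 were high, and DESeq2 called 16 of the 21 tested for vehicle against WT, beside 4.22% of all genes. Of 22 proximal tubule markers 21 could be paired, none at 0 in any library, and they summed to 4647 and 2815 CPM in WT, 6708 and 13241 CPM in AT1R Tg vehicle and 7068 and 6973 CPM in AT1R Tg AC1903. PAX8 and KRT8 were highest in the library with the most proximal tubule RNA, AT1R Tg vehicle replicate 2. CDH6 was not, at 8.79 CPM there, 9.06 CPM in vehicle replicate 1 and 9.19 CPM in AC1903 replicate 2. Within WT, PAX8, KRT8 and CDH6 were 1.18-, 1.26- and 1.19-fold higher in replicate 2, where the tubule sum was lower. Without AT1R Tg vehicle replicate 2 the log2 change of PAX8, vehicle against WT, was 0.67. AT1R Tg vehicle replicate 1, which remained in that fit, had 1.80 times the WT mean of the tubule sum. The 20 paired genes of loop, distal tubule and collecting duct summed to 536 to 590 CPM in the WT and vehicle libraries and to 787 and 774 CPM with AC1903. The part of tubular RNA in these members was not tested.

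Read against all genes, vehicle against WT gave 0 members of 10 in edgeR, where 0.0745% of the genes tested were called. DESeq2 called 2, KRT8 and PAX8, both higher, beside 4.22% of all genes, and the authors' deposited table listed the same 2 beside 4.42%. An unadjusted edgeR p under 0.05 was reached by 5 members, CDH6, KRT8 and PAX8 higher and KRT7 and KRT18 lower, beside 11.9% of all genes. The same 3 were higher with no overlap between groups, beside 20.6% of all genes, and the same 2 lower, beside 23.4%. The median log2 change of the 10 was 0.25, with 5 positive and 5 negative, beside a median of -0.03 over all genes.

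AC1903 against vehicle gave 0 members in edgeR, 0 in DESeq2 and 0 in the authors' deposited table, beside 0%, 0.423% and 0.378% of all genes. CD44 alone had an unadjusted p under 0.05, beside 8.12% of all genes. KRT18 and KRT19 were higher without overlap, beside 19.9%, and PAX8 lower, beside 18.4%. Their median log2 change was -0.18, with 3 positive and 7 negative, beside -0.02 over all genes. This comparison and the one before share the vehicle libraries, so opposite signs in them are tied to the same values.

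AC1903 against WT gave 0 members in edgeR and 0 in DESeq2, beside 0.0372% and 1.28% of all genes. KRT8 and CDH6, higher, and KRT7, lower, had an unadjusted p under 0.05, beside 11.1% of all genes. CDH6, KRT8 and PAX8 were higher without overlap, beside 24.2%, and KRT7 and SCIN lower, beside 23.5%. The median was 0.40, with 6 positive and 4 negative, beside 0.0019 over all genes. The plot of log2 changes sets the 3 comparisons side by side.

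**Figure D4:**
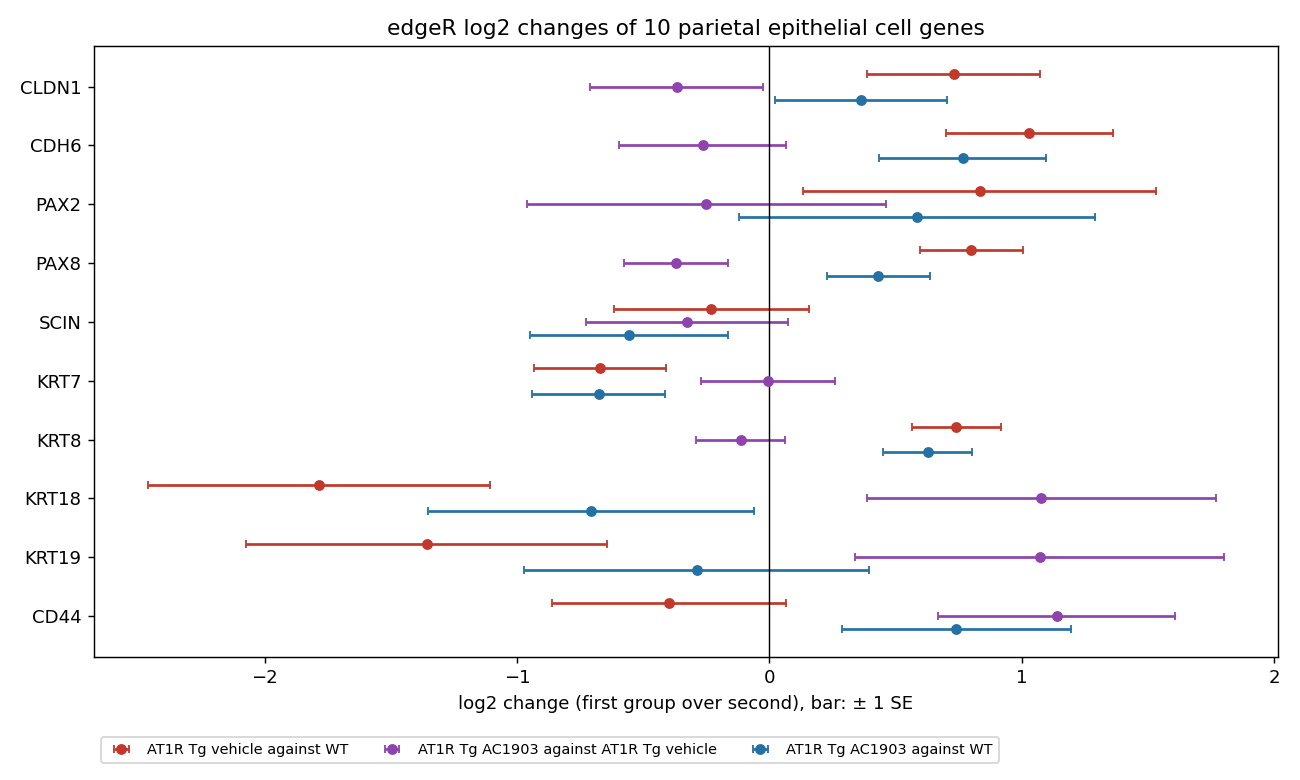
edgeR log2 change (horizontal axis, bars ± 1 SE) of each of the 10 genes in the 3 comparisons, positive where the first-named group is higher. KRT8 has the narrowest bars, at 0.74 with SE 0.18 for vehicle against WT, and KRT18, KRT19 and PAX2 the widest.

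Further parietal markers, a list separate from the 10 genes, were tested for 16 of 19 listed, and none passed in edgeR in any comparison. Vehicle against WT 9 were positive and 7 negative (median log2 change 0.09), AC1903 against vehicle 3 and 13 (median -0.15), and AC1903 against WT 9 and 7 (median 0.07). Over all genes tested 46.6%, 47.9% and 50.2% were positive in these comparisons. PROM1, the progenitor marker CD133, stood at 13.4 ± 0.785 CPM in WT, 20.6 ± 4.39 in vehicle and 15.8 ± 3.25 with AC1903. CD24, with which it marks parietal progenitors in human kidney, went the other way at 159 ± 17.6, 110 ± 22.6 and 106 ± 17.6 CPM. LAD1, ladinin, stood at 15.6 ± 1.86 and 22.9 ± 1.67 CPM in WT and vehicle. DESeq2 called 1 of these markers, TM4SF1, a tetraspanin-like membrane protein, for AC1903 against WT, beside 1.28% of all genes. TM4SF1 stood at 697 ± 194 CPM in WT and 357 ± 49.7 with AC1903 (log2 change -0.97 with SE 0.29, adjusted p = 0.354 in edgeR and 0.0493 in DESeq2).

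Genes of parietal cell activation signalling were tested for 17 of 19 listed, and none passed in edgeR. Vehicle against WT 9 were positive and 8 negative (median 0.02), AC1903 against vehicle 9 and 8 (median 0.13), and AC1903 against WT 13 and 4 (median 0.26). The shares positive over all genes tested were 46.6%, 47.9% and 50.2%. ITGB3, the beta-3 integrin, was at 4.28 ± 0.539 CPM in WT, 7.78 ± 0.410 in vehicle and 12.1 ± 0.860 with AC1903 (SD, n = 2). Its groups did not overlap, where 20.6%, 19.9% and 24.2% of all genes were higher without overlap in the 3 comparisons. AC1903 against WT, the mean of ITGB3 was 2.83-fold higher (adjusted p = 0.191 in edgeR and 0.00156 in DESeq2). EGFR, the receptor for HBEGF, stood at 1.51 ± 0.604 CPM in WT and 4.03 ± 1.20 in vehicle. The chemokine CXCL12 stood at 120 ± 19.0 and 225 ± 108 CPM. NOTCH2, a receptor of the Notch pathway, had 23.1 and 19.5 CPM in the vehicle libraries and 30.7 and 36.4 CPM in the AC1903 libraries (adjusted p = 0.586 in edgeR). These did not overlap, beside the 19.9% of all genes given above.

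Among epithelial junction and filament partners, 15 of 18 were tested and none passed in edgeR. Vehicle against WT 6 were positive and 9 negative (median -0.07), AC1903 against vehicle 5 and 10 (median -0.18), and AC1903 against WT 9 and 6 (median 0.25). EPCAM, an adhesion protein of tubular epithelium, stood at 47.6 ± 13.7 CPM in WT, 103 ± 40.0 in vehicle and 96.7 ± 6.30 with AC1903 (SD, n = 2). Vehicle against WT its log2 change was 1.12 with SE 0.29 (adjusted p = 0.189 in edgeR and 0.0115 in DESeq2). CDH16, the kidney-specific cadherin, stood at 152 ± 10.6, 251 ± 68.2 and 213 ± 7.11 CPM, with a change of 0.73 and SE 0.21 in the same comparison (adjusted p = 0.201 in edgeR and 0.0258 in DESeq2). The desmosomal linker EVPL, envoplakin, was lower with AC1903 than in WT, at 7.70 ± 0.648 against 13.9 ± 0.846 CPM (adjusted p = 0.34). Both EPCAM and CDH16 are made along the tubule. The proximal tubule sum above was higher in the same groups. The loop, distal tubule and collecting duct sum was 536 to 590 CPM in the WT and vehicle libraries and higher only with AC1903. The part of tubular RNA in the EPCAM and CDH16 values was not tested.

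The other cell type lists had no gene past the edgeR threshold either. Median log2 changes for vehicle against WT, AC1903 against vehicle and AC1903 against WT were 1.37, -0.43 and 0.97 in the proximal tubule list, and 0.08, 0.39 and 0.37 in the loop, distal tubule and collecting duct list. They were -0.19, 0.04 and -0.18 in the podocyte list and -0.35, 0.21 and -0.12 in the glomerular endothelial list. Mesangial and vascular smooth muscle genes had medians of -0.22, -0.19 and -0.39, and leukocyte genes -0.46, 1.32 and 0.92. Besides the proximal tubule genes given above, DESeq2 called DES (desmin), lower, for vehicle against WT, and 4 of 13 leukocyte genes, higher, for AC1903 against vehicle, beside 0.423% of all genes. For AC1903 against WT, beside 1.28% of all genes, it called 2 proximal tubule and 2 leukocyte genes and UMOD (uromodulin), all higher, and DES, lower.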

How the data were processed

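Total RNA of isolated glomeruli was made into libraries with a stranded mRNA kit, per the labels' protocols, and the authors deposited expected counts for each Ensembl gene. The submitters' processing notes name STAR 2.5.2b, RSEM 1.3.0 and the build Rnor_5.0; the annotation release is not given in the sources used. RSEM divides reads between similar sequences, so values of keratins, which have processed copies, are uncertain. Log2 fold changes and adjusted p-values of 2 comparisons were deposited by the authors, per the file headers, which do not name the tool.

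Counts were rounded, filtered with filterByExpr (13426 genes) and scaled by TMM. edgeR 4.0.16 in R 4.3.3 (quasi-likelihood test, two-sided, all 6 libraries, 3 residual degrees of freedom, Benjamini-Hochberg over all genes tested, threshold 0.05) was the main test, and its SE was taken from the F statistic. Alternatives were DESeq2 1.42.0, DESeq2 size factors, no filter, a replicate block, age, and each library left out. The scripts were tested on simulated data. Libraries of a group differed by more than sampling noise (chi-square per degree of freedom 19.3 to 95.4). A count of 0 allows up to 3 counts, 0.0813 to 0.250 CPM, by counting error only.

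Members and lists (9 besides the members: further parietal markers, activation signalling, junction and filament partners, proximal tubule, the later nephron segments, podocyte, glomerular endothelial, mesangial and smooth muscle, leukocyte) were chosen with earlier results of these data known. All members are named, of other lists up to 3 genes per comparison by smallest p, and the 3 genes most like CLDN1, PAX8 and CD44; log2 CPM for likeness used a prior count of 2. NPHS1, WT1 and PTPRC serve as tissue references. Uroplakins were added after the keratin values were seen.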

Additional observations from a re-analysis of the deposited data

How the results depend on the processing

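Over all genes, calls for vehicle against WT, AC1903 against vehicle and AC1903 against WT numbered 10, 0 and 5 in edgeR, 534, 62 and 170 in DESeq2, and 774, 114 and 464 with no filter on low counts. With the replicate block they numbered 4, 2 and 7, and with age as a covariate 4, 1 and 5; leaving out 1 library gave 1 to 530, 0 to 4 and 1 to 25. The count of 530 came without AT1R Tg vehicle replicate 1. Same-numbered libraries did not deviate together (r of deviations across genes -0.041 to 0.0046), so the replicate number gave no sign of a pairing. WT replicate 1, AT1R Tg vehicle replicate 1 and AT1R Tg AC1903 replicate 2 were all 20.4 weeks of age. Whether they were handled together is not known. Of the members, DESeq2 called 2 and the unfiltered fit 3 for vehicle against WT (KRT8 and PAX8, and KRT18 in the unfiltered fit, log2 change -1.77, adjusted p = 0.0305); every other alternative run, the replicate block included, called 0 in every comparison. The cause was not tested.

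Member changes kept their sign in 106 of 110 refits for vehicle against WT, 103 of 110 for AC1903 against vehicle and 106 of 110 for AC1903 against WT. Leaving out 1 library, changes that turned sign ran, vehicle against WT, from -2.08 to 0.18 for KRT19, -0.19 to 1.42 for PAX2 and -0.54 to 0.033 for SCIN. AC1903 against vehicle they ran from -0.69 to 0.0048 for CDH6, -0.81 to 0.25 for CLDN1, -0.39 to 0.23 for KRT7 and -0.84 to 0.77 for PAX2. AC1903 against WT they ran from -0.19 to 1.29 for CD44, -1.43 to 0.81 for KRT18 and -1.01 to 1.25 for KRT19. With age as a covariate KRT7 gave 0.24 for AC1903 against vehicle. A lone library was assumed to vary like the other groups. PAX2 had 14 to 57 counts a library, and its vehicle libraries, of similar totals, were 3.04-fold apart.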
